A study of Mus musculus with 21 samples.

Results

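The pigment cell genes examined here were 9 genes chosen by name, of 24391 genes in each count file: Mitf, Tyr, Tyrp1, Dct, Mlana, Slc45a2, Oca2, Kit and Ednrb. All 9 symbols were found in the 21 libraries. The libraries were made from skin, brain and liver RNA of 7 C57BL/6 mice taken as newborns (P0), with 1 library per mouse and tissue. In each tissue 2 libraries came from mice heterozygous for the Jak1 H595D/+;I596I/+;Y597Y/+ knock-in alleles, labelled Jak1 KI +/- (KI), and 5 from wild-type (WT) mice. H595D is an amino acid substitution in the JAK1 kinase and the other changes are silent; the pups descended from a mosaic male, and gene counts cannot show the alleles. The libraries held between 26549326 and 38388133 counts on genes.

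Melanocytes are neural crest cells that make melanin in an organelle called the melanosome and pass it to keratinocytes. In the trunk of C57BL/6 mice they sit mainly in the hair follicles. MITF, a transcription factor, switches on the melanin enzymes and binds short E-box motifs near their start sites. Endothelin 3, acting on EDNRB, and KIT ligand, acting on KIT, keep the precursor cells alive and moving. Several of the 9 genes are also used elsewhere: mast cells depend on KIT and MITF, neurons and blood progenitors make KIT, and glia and endothelium make EDNRB. The pigment epithelium of the eye makes the melanin enzymes too. All libraries were made from whole tissue, where fewer cells of a type and less RNA per cell cannot be told apart.

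The promoters of the 3 melanin enzyme genes are shown because all 3 hold the same extended E-box, the sequence that separates them from the other members with a promoter window. The windows are RefSeq sequences in GRCm38.p6, from 250 bases before the start site to 50 bases after it, and the capitals mark TCATGTG, or its reverse complement, on either strand. The Tyr window lies at chr7:87493463-87493762 on the minus strand, that of Tyrp1 at chr4:80833963-80834262 on the plus strand, and that of Dct at chr14:118052197-118052496 on the minus strand.
Tyr promoter: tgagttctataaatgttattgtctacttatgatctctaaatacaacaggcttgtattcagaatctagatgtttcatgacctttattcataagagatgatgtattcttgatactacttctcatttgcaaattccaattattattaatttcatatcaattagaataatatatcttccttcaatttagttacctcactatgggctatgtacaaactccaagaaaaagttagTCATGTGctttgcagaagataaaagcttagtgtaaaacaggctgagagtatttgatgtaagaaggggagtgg
Tyrp1 promoter: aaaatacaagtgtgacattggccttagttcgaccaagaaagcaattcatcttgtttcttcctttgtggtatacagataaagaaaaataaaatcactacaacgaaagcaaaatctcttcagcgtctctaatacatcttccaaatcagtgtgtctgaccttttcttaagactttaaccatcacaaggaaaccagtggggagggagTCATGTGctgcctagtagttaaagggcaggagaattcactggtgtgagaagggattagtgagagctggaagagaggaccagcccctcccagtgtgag
Dct promoter: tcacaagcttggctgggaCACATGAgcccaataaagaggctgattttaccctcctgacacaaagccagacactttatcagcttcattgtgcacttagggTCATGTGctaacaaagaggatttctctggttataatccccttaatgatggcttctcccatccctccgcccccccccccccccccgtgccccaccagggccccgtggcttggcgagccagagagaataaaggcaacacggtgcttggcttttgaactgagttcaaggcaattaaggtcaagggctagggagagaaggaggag

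Of the 9 members, 7 had a window, and TCATGTG was in 3 of those 7 against 3.772% of 32851 mouse promoter windows. Members were counted by gene and the background by window, and Mitf and Kit had further windows. The member and background shares in this paragraph are therefore in unlike units. The match began 22 bases before the start site of Tyr and 47 bases before that of Tyrp1. In Dct there were matches on both strands, at 151 and at 232 bases before the start. The shorter CATGTG, which TCATGTG contains, was also found in Oca2, so that 4 of 7 members held it against 14.155% of all windows. CACGTG was in 0 of 7 members and in 7.15% of all windows. These are matches of letters and no binding was measured.

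In the mm9 assembly (NCBIM37), Tyr spans bases 94574910 to 94641943 of chromosome 7 and Oca2 bases 63495130 to 63791887 of the same chromosome. Dct, at 118412014 to 118451468, and Ednrb, at 104213842 to 104243390, are both on chromosome 14. Tyrp1 lies on chromosome 4 from 80480027 to 80497623. Mitf lies on chromosome 6 from 97757052 to 97971352, Kit on chromosome 5 from 75970941 to 76052747, Slc45a2 on chromosome 15 from 10930476 to 10958988, and Mlana on chromosome 19 from 29772411 to 29782938. Within Mitf lies a pseudogene on the opposite strand, Gm15531, whose exons do not overlap those of Mitf.

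All members except Oca2 were clearly present in every newborn skin, while Oca2 had 0 to 2 reads in KI 2, WT 2, WT 3 and WT 5. The amount of the melanin genes differed widely from mouse to mouse. Dct, Tyr, Tyrp1, Mlana and Slc45a2 varied together over the 7 skins, while Kit and Ednrb stayed within a narrow range. The tissues were first checked against defining markers. The 6 epidermal genes of a fixed list summed to 900–16423 CPM in the skin libraries, where CPM are the reads of a gene per 1000000 reads counted on genes,, 49.9–101.5 CPM in the brain and 1.55–2.92 CPM in the liver. The 6 hepatocyte genes summed to at least 146581 CPM in every liver, and the 6 neuronal genes to at least 6519 CPM in every brain. Each library therefore carried the markers of its labelled tissue.

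Tyr encodes tyrosinase, the rate-limiting enzyme of melanin synthesis. In the WT skins it stood at 1.99, 2.75, 4.53, 11.1 and 17.7 CPM, in the order WT 5, WT 2, WT 3, WT 1 and WT 4. The KI skins held 1.17 CPM in KI 2 and 11.8 CPM in KI 1. One KI skin was thus below every WT skin and the other lay between WT 1 and WT 4. The counts behind these values ran from 34 reads in KI 2 to 612 reads in WT 4.

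Dct encodes dopachrome tautomerase, which acts after tyrosinase. In the same order of mice the WT skins held 25.0, 34.4, 57.4, 133.8 and 210.8 CPM of Dct. KI 2 held 21.7 CPM and KI 1 held 161.4 CPM. The mice took the same order as for Tyr, with KI 2 lowest and WT 4 highest, a 9.69-fold span. Of 15931 genes with a count in every skin, 943 (5.919%) had a span at least as wide, and the median span was 1.683-fold.

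Tyrp1, whose product acts late in the making of brown-black melanin, ran from 1.93 CPM in KI 2 to 32.2 CPM in WT 4, a 16.7-fold span. Mlana, a protein of the melanosome membrane, ran from 0.861 to 10.8 CPM in the same mice, and Slc45a2, a transporter of the melanosome, from 1.10 to 9.71 CPM. Oca2, which encodes an ion channel of the melanosome, was low. It was listed at 0 in KI 2, at 0.0573–0.0698 CPM in WT 2, WT 3 and WT 5, and at 0.925–1.82 CPM in WT 1, KI 1 and WT 4. The skins with high Oca2 were thus those with high Tyr, Tyrp1 and Dct. For the 10 pairs among Tyr, Tyrp1, Dct, Mlana and Slc45a2, the Pearson r of log2 CPM over the 7 skins lay between 0.923 and 0.997.

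Mitf, Kit and Ednrb, the regulators of the group, varied less. Mitf held 14.9, 23.4, 21.6, 32.5 and 30.4 CPM in WT 5, WT 2, WT 3, WT 1 and WT 4, with 20.4 CPM in KI 2 and 28.6 CPM in KI 1. Its span was 2.17-fold, and the skins high in Dct were also the 3 highest in Mitf. Kit lay between 76.7 and 94.3 CPM in the WT skins, with 82.4 CPM in KI 1 and 87.3 CPM in KI 2. Ednrb lay between 69.1 and 88.3 CPM in WT, with 77.2 CPM in KI 2 and 96.8 CPM in KI 1. The spans of Kit and Ednrb were 1.23-fold and 1.40-fold, below the median span of all genes.

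**Figure D1:**
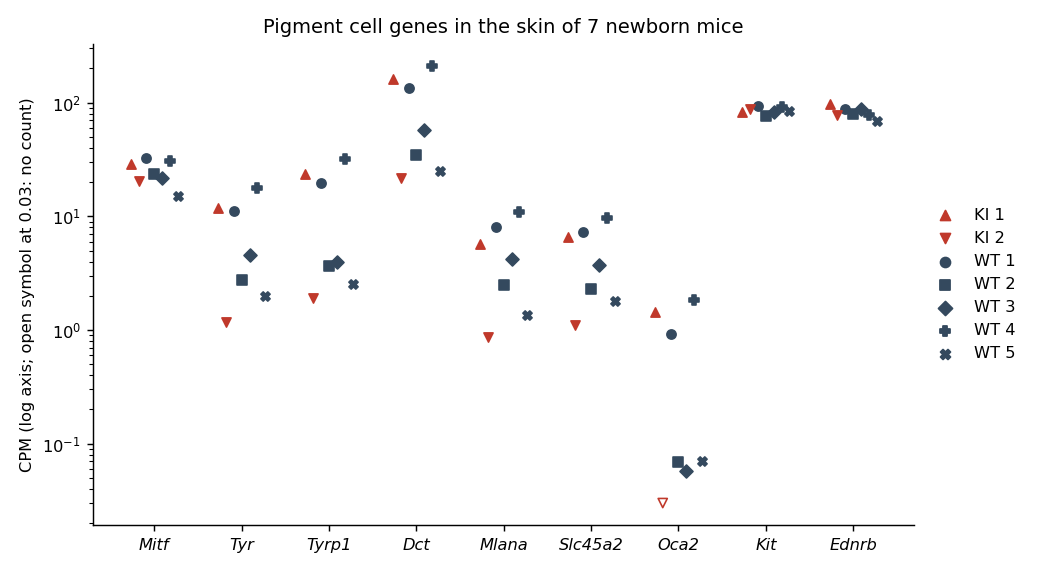
CPM of the 9 genes in the 7 skin libraries on a log axis, 1 symbol per mouse, with KI in red and WT in dark blue and a gene without a count drawn as an open symbol. Tyr, Tyrp1, Dct, Mlana and Slc45a2 are spread over 8.80-fold to 16.7-fold with KI 2 at the bottom and WT 4 at the top, whereas Kit and Ednrb form tight groups.

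Levels of different genes were compared as CPM per kilobase of exon. In the skin the mean was highest for Dct, at 37.1 ± 30.6 CPM per kilobase (SD, n = 7), followed by Ednrb at 20.4 ± 2.27 and Kit at 14.7 ± 1.04. Dct was above Ednrb in 4 of 7 skins, so these neighbours did not differ beyond their spread. Ednrb was above Kit in all 7 skins with no overlap of the ranges. Mlana followed at 7.68 ± 5.89, Tyrp1 at 4.42 ± 4.39 and Mitf at 3.94 ± 1.00 CPM per kilobase, and Tyrp1 exceeded Mitf in 3 of 7 skins. Slc45a2, at 1.55 ± 1.09, and Tyr, at 1.35 ± 1.16, had overlapping ranges, although Slc45a2 was the higher in 6 of 7 skins. Oca2 came last at 0.158 ± 0.193 CPM per kilobase. Kit against Mlana, Mlana against Tyrp1, Mitf against Slc45a2 and Tyr against Oca2 also had overlapping ranges.

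The rank of the skins by melanin genes was also their rank by epidermal genes. The summed CPM of Krt5, Krt14, Krt1, Krt10, Lor and Trp63, which mark the layers of the epidermis, was 900 in KI 2, 1500 in WT 5, 4139 in WT 2, 5385 in WT 3, 9481 in WT 1, 13583 in KI 1 and 16423 in WT 4. With this sum, on a log2 scale, r was 0.966 for Tyr, 0.925 for Tyrp1, 0.947 for Dct, 0.969 for Mlana and 0.964 for Slc45a2 over the 7 skins. Spearman's rho was 1.0 for Tyr, Tyrp1 and Dct and 0.964 for Mlana and Slc45a2. Exact two-sided permutation of the 7 mice gave Benjamini-Hochberg adjusted p of at most 0.00273 for r and 0.00655 for rho in these 5 genes, over 33 relations computed. Without the 2 skins farthest from the median of the sum, r lay between 0.888 and 0.983 for these genes. These relations were among 20 chosen after the values had been seen.

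The hair follicle list of 10 genes, among them Shh, Lhx2, Krt17 and the hair keratins Krt25 and Krt35, summed to 398 CPM in KI 2 and to 1401 CPM in WT 4. The relation of the melanin genes to this list had r of 0.997 for Tyr, 0.971 for Tyrp1, 0.986 for Dct, 0.985 for Mlana and 0.998 for Slc45a2, with rho of at least 0.964. The adjusted exact permutation p was at most 0.00179 for r and 0.00655 for rho. All relations with the hair follicle and epidermal lists, those of Mitf, Kit and Ednrb included, were among the 20 chosen after the values had been seen. Without the 2 farthest skins r was 0.993, 0.958, 0.985, 0.969 and 0.997. Divided by Krt5, the span of Dct over the 7 skins narrowed from 9.69-fold to 3.00-fold. Divided by Pmel, a structural protein of the melanosome, it narrowed to 1.32-fold.

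Mitf followed both lists, with r of 0.819 for the epidermal sum and 0.848 for the hair follicle sum (adjusted exact permutation p = 0.042 and 0.0327, rho = 0.857 and 0.929, adjusted p = 0.0462 and 0.0148). Without the 2 farthest skins these r were 0.872 and 0.939. Against Dct, a relation listed at the outset, r of Mitf was 0.875 and rho 0.857 (adjusted exact permutation p = 0.0327 and 0.0462), and r was 0.835 without the 2 farthest skins. Kit did not follow these lists. Its r was 0.071 with the epidermal sum and 0.341 with the hair follicle sum (adjusted exact permutation p = 0.944 and 0.61, rho = 0.179 and 0.357, adjusted p = 0.759 and 0.543). For Ednrb r was 0.524 and 0.50 (adjusted exact permutation p = 0.362 and 0.365, rho = 0.429 and 0.357, adjusted p = 0.53 and 0.543). Without the 2 farthest skins r was 0.703 and 0.563 for Kit and 0.334 and 0.860 for Ednrb. Against Dct, r was 0.363 for Kit and 0.584 for Ednrb (adjusted exact permutation p = 0.595 and 0.279, rho = 0.179 and 0.429, adjusted p = 0.759 and 0.53), and 0.354 and 0.712 without the 2 farthest. None of these relations of Kit and Ednrb could be told from 0 with 7 mice.

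Mast cells are another source of Kit and Mitf in the skin. Their 11 markers, with Cpa3, Cma1 and Mcpt4 among them, summed to 2571–4442 CPM and were all present in every skin, with KI 2 highest and WT 3 lowest. The r of Kit with this sum was 0.155 and that of Mitf -0.445 (adjusted exact permutation p = 0.832 and 0.451, rho = 0.393 and -0.464, adjusted p = 0.543 and 0.499). That of Ednrb was -0.684 (adjusted exact permutation p = 0.156, rho = -0.571, adjusted p = 0.367). Without the 2 farthest skins the r of Kit, Mitf and Ednrb were 0.014, -0.793 and -0.818. The 10 Schwann cell markers summed to 521–652 CPM, and the r with this sum was 0.011 for Kit, -0.352 for Mitf and -0.021 for Ednrb, with adjusted exact permutation p of at least 0.585 and rho between -0.357 and -0.107 with adjusted p of at least 0.543. The part that any of these cell types had in the level of the members was not tested.

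**Figure D2:**
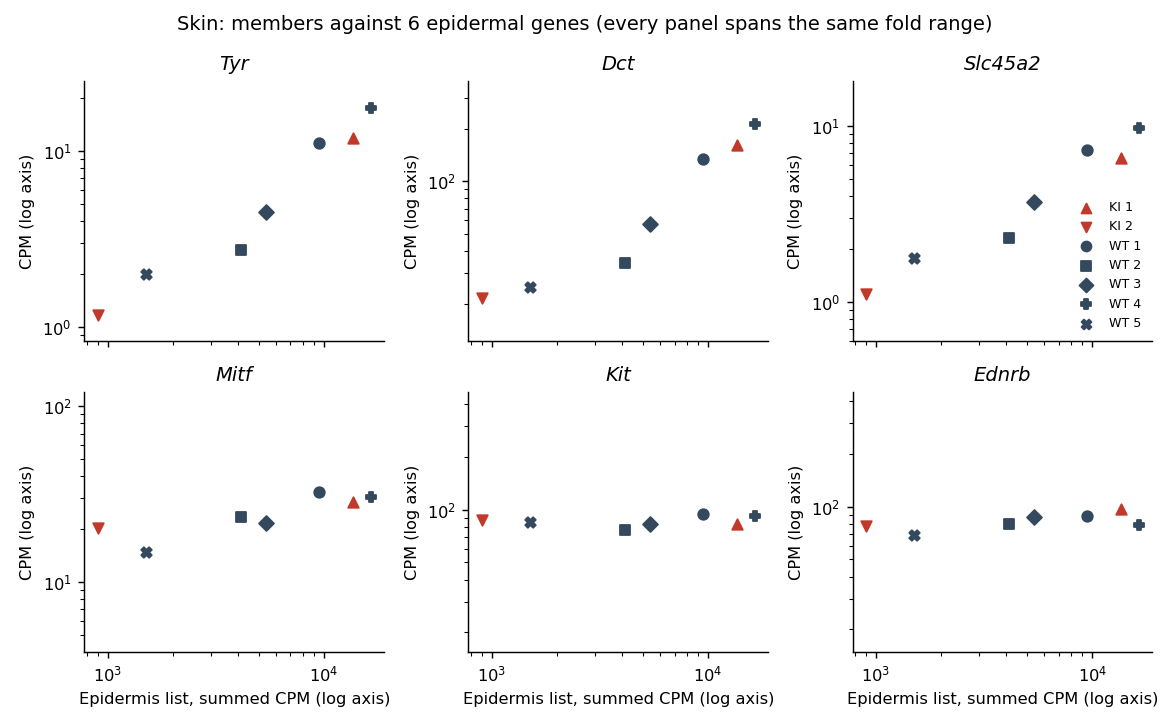
CPM of 6 members against the summed CPM of 6 epidermal genes in the 7 skins, both on log axes, with KI in red and WT in dark blue; each panel covers the same fold range. Tyr, Dct and Slc45a2 climb with the epidermal sum (r of 0.966, 0.947 and 0.964), Mitf climbs less steeply, and Kit and Ednrb are flat by comparison.

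The 10 genes outside the group whose level was most like the mean pattern of Tyr, Tyrp1, Dct, Mlana and Slc45a2 were ranked among 16154 genes. They were Zic1 (r = 0.997), Gm8994, Kcnk7, Gcat, Krt17, Pmel, Mycn, Klrg2, Cwh43 and Capns2 (r = 0.990), with n = 7 skins for each r. The pattern was a broad one, since 452 genes had an r over 0.9. Zic1, a zinc finger transcription factor gene, held 1 read (0.034 CPM) in KI 2 and 0.175, 0.626 and 1.95 CPM in WT 5, WT 2 and WT 3. It reached 11 CPM in WT 1, 15.3 CPM in KI 1 and 32.4 CPM in WT 4. Pmel ran from 11.5 CPM in KI 2 to 144.9 CPM in WT 4 in the same order of mice. The labels do not give the site from which each skin was taken, and the part of the site was not tested.

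Other genes of the melanocyte lineage took varied places in this ranking. Pax3, a transcription factor of the neural crest, ranked 68, Trpm1, a melanocyte ion channel, 204, and Mc1r, the receptor for melanocyte-stimulating hormone, 968. Sox10, the crest factor that acts upstream of Mitf and is also made by Schwann cells, ranked 7692 (r = -0.06). Kitl, which encodes the ligand of KIT and is made by keratinocytes and dermal cells, ranked 14705 (r = -0.68). Sox10 held 18.3 CPM in KI 2, 89.5 CPM in WT 5 and 32.8–35.2 CPM in the other skins, so its extremes were at the low end of the Tyr order.

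The skin was compared with the other tissues in the WT mice. Of the 9 members, 6 were higher in skin than in brain, as were 40.3% of the 17071 genes tested. They were Tyr, Tyrp1, Dct, Mlana, Mitf and Slc45a2. Ednrb was lower, as were 39.1% of all genes tested, and Oca2 and Kit were not called. Genes with an adjusted p below 0.1 in the quasi-likelihood test of edgeR were called.

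Genes with almost no reads in the brain are given as ratios of CPM. The 5 WT brains held 8 reads of Tyr in all, against 1242 in the 5 WT skins, a ratio of CPM of 153 (95% exact counting interval 77.5–356). Tyrp1 had 9 reads against 2024, a ratio of 222 (117–486). Mlana had 1 read, in WT 4, against 875, and the interval ran from 155 to 34140. The intervals cover counting error only, and the edgeR adjusted p of these 3 genes was at most 2.03e-05. Each of the 5 WT skins held more CPM of each gene than any WT brain.

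Dct was at 92.3 ± 78.8 CPM in WT skin and 0.309 ± 0.377 CPM in WT brain (SD, n = 5), a log2 difference of 8.38 (SE 0.811, edgeR adjusted p = 1.18e-07). Of its 44 reads in the 5 WT brains, 26 were those of WT 5, and without the WT 5 libraries the difference was 9.68. Mitf was at 24.6 ± 7.07 CPM in skin and 2.91 ± 0.815 CPM in brain (log2 difference 3.16, SE 0.249, edgeR adjusted p = 1.04e-08). Slc45a2 was at 4.95 ± 3.42 CPM in skin and 0.478 ± 0.142 CPM in brain (log2 difference 3.46). Ednrb went the other way. It stood at 80.4 ± 7.91 CPM in skin and at 220.9 ± 68.9 CPM in brain, a log2 difference of -1.37 (SE 0.276, edgeR adjusted p = 0.000313). Kit stood at 86.1 ± 7.21 CPM in skin and 86.9 ± 21 CPM in brain, with a log2 difference of 0.08 (SE 0.149). Oca2 stood at 0.588 ± 0.783 CPM in skin and 0.536 ± 0.332 CPM in brain, with a log2 difference of 0.25 (SE 0.933), so the interval of its difference is wide. With the mouse as a block it was -0.47 (edgeR adjusted p = 0.561).

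Against the liver, 8 of 9 members were higher in WT skin, as were 39.8% of all genes tested. Tyr, Tyrp1, Mlana and Oca2 had 0 reads in all 7 livers, so no fold could be measured. The limit that a count of 0 allows was taken as 3 reads per library, or 0.0996 CPM in the shallowest WT liver. As ratios of CPM, mean WT skin was at least 76.4-fold higher for Tyr, 124.4-fold for Tyrp1, 54.0-fold for Mlana and 5.91-fold for Oca2. No normalization factors enter these bounds. For Mitf in the same tissues those factors lowered the fold from 8.26 to 5.04, so the bounds are not on the scale of the fitted differences. For Oca2 the skins of WT 2, WT 3 and WT 5 held 0.0573–0.0698 CPM, below the limit of 0.0996 CPM. No excess of Oca2 over the liver was therefore shown in these skins. The bound for Oca2 rests on the other WT skins, at 0.925 and 1.82 CPM. Slc45a2 had 12 reads in the 5 WT livers, and its log2 difference was 5.38 (SE 0.612). No read of the enzyme genes Tyr and Tyrp1 was thus found in the liver at this depth.

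Dct was the exception among the enzyme genes, with 5.00 ± 1.71 CPM in WT liver (SD, n = 5), or 75 to 215 reads in a library. It was 3.51 lower than in skin on the log2 scale (SE 0.610, edgeR adjusted p = 9.48e-05), and 4.87 higher than in WT brain (SE 0.751, adjusted p = 1.79e-05; -5.82 for brain against liver without WT 5). Mitf in the liver was at 3.00 ± 0.605 CPM and differed from skin by 2.33 on the log2 scale (SE 0.241). The normalization factors of skin and liver differed, so this fitted fold of 5.04 is below the ratio of CPM, 8.26. Kit, at 42.0 ± 5.63 CPM in liver, was higher in skin by 0.33 on the log2 scale (SE 0.149, edgeR adjusted p = 0.0597), a call that was lost without WT 1, WT 3 or WT 4 (adjusted p = 0.111 to 0.162). Ednrb, at 36.9 ± 13.8 CPM in liver, was not called (0.42, SE 0.272, adjusted p = 0.188), but was called with the mouse as a block (0.52, edgeR adjusted p = 0.0378).

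Between WT brain and WT liver, 3 members were higher in brain (43.3% of all genes tested were) and 2 were higher in liver (40.2%). Slc45a2 and Ednrb were higher in brain by 1.91 and 1.78 on the log2 scale, and Oca2 was present in every brain and at 0 in every liver. Dct and Mitf were called higher in liver. In CPM Mitf was nearly equal, at 2.91 ± 0.815 in WT brain and 3.00 ± 0.605 in WT liver (SD, n = 5). The normalization factors of brain and liver differed, and its fitted log2 difference was -0.83 for brain against liver (SE 0.237). Kit, at 86.9 CPM in brain and 42.0 CPM in liver, had a fitted difference of 0.26 (SE 0.149) and was not called. Tyr and Tyrp1 were not called either, with 8 and 9 reads in the brains and 0 in the livers. With the mouse as a block both were called higher in brain (edgeR adjusted p = 0.0831 and 0.0861).

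**Figure D3:**
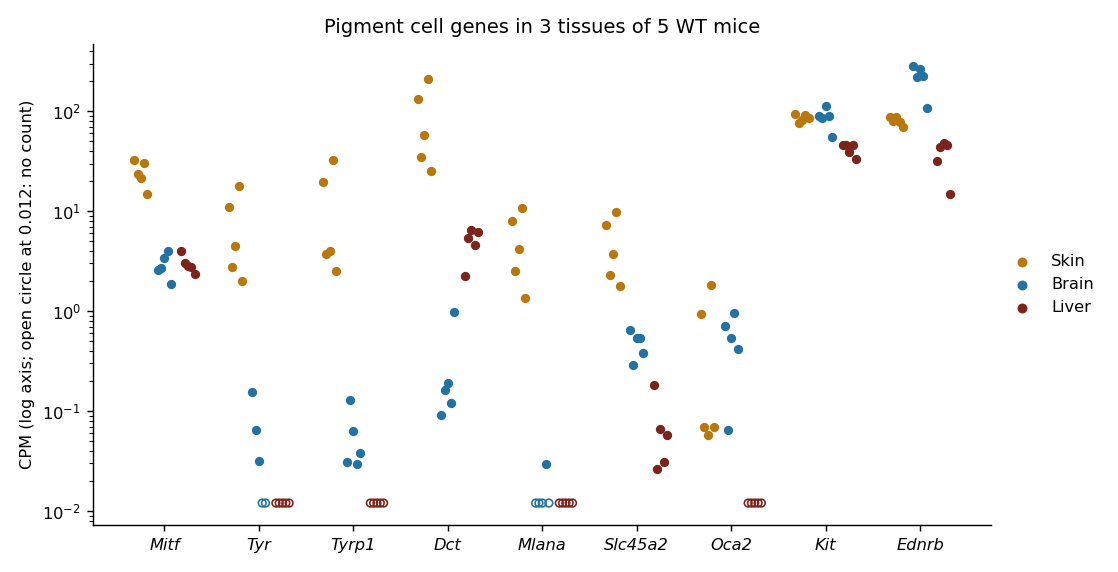
CPM of the 9 genes in the skin, brain and liver of 5 WT mice on a log axis, 1 circle per library, with open circles for libraries without a count. Tyr, Tyrp1 and Mlana reach at most 0.154 CPM in the brain and have no count in the liver, Dct is also found in the liver at 2.26–6.51 CPM, Oca2 overlaps between skin and brain, and Kit and Ednrb are above 10 CPM in every tissue.

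The brain libraries held traces of the melanin genes. Tyr had 5, 2, 1, 0 and 0 reads in WT 1 to WT 5, and 2 and 1 reads in KI 1 and KI 2. Tyrp1 had 1, 4, 2, 1 and 1 reads in WT 1 to WT 5, and 10 and 19 reads in KI 1 and KI 2. Dct had 3, 5, 6, 4 and 26 reads in the WT brains and 4 reads in each KI brain. Tyr was thus near 0 in every brain, the 2 highest counts of Tyrp1 were those of the KI brains, and the high count of Dct was that of WT 5. Mlana had 1 read in all 7 brains together.

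Slc45a2 and Oca2 were above that trace level. Slc45a2 had 21, 9, 17, 18 and 10 reads in WT 1 to WT 5 and 27 and 8 in KI 1 and KI 2. Oca2 had 23, 2, 17, 32 and 11 reads in the WT brains and 44 and 21 in the KI brains. Per kilobase of exon, Ednrb (54.8 ± 13.9), Kit (15.6 ± 3.18) and Mitf (0.520 ± 0.139) led the group in the brain (SD, n = 7). Ednrb and Kit did not overlap, nor did Kit and Mitf. Oca2 and Slc45a2, at 0.164 and 0.162 CPM per kilobase, did not differ beyond their spread. Each of the lower neighbours down to Mlana had overlapping ranges.

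Markers of the eye were looked for beside these traces. Of the 8 genes listed for the retinal pigment epithelium, 6 had reads in every brain, while Rpe65 and Rgr had 0 reads in all 7 brains. Rpe65 and Rgr were singled out after their values were seen. The 6 with reads, which include Rlbp1, also of radial glia, and Otx2, also of the choroid plexus, brought the sum to 68.9–113.5 CPM, with WT 5 highest. The 12 photoreceptor genes summed to 2.89–6.63 CPM, with 5.98 and 6.59 CPM in the KI brains. Crx, a factor of photoreceptors and of the pineal gland, had 60 and 80 reads in KI 1 and KI 2, 44 in WT 5 and 0 or 1 in the other WT brains.

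Tyrp1 and the photoreceptor sum had an r of 0.512 over the 7 brains (adjusted exact permutation p = 0.374, rho = 0.286, adjusted p = 0.655), and Tyrp1 and the pigment epithelium sum an r of 0.132 (adjusted exact permutation p = 0.832, rho = 0.5, adjusted p = 0.463). Without the 2 farthest brains these were 0.789 and 0.821. For Dct and the pigment epithelium sum r was 0.840 (adjusted exact permutation p = 0.0753, rho = 0.357, adjusted p = 0.543), and -0.671 without the 2 brains farthest from the median, so the relation rests on those brains. For Dct and the photoreceptor sum r was 0.378 (adjusted exact permutation p = 0.65, rho = 0.143, adjusted p = 0.807) and -0.081 without the 2 farthest. Tyr had brains without a read and was left out. WT 5 also had the highest sum of 6 choroid plexus genes, 2489 CPM against 58.4–1293 CPM in the other brains. Most of that difference was Ttr alone, at 2407 CPM in WT 5 and 20.6–1212 CPM in the other brains. The part of any of these tissues in the traces was not tested.

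**Figure D4:**
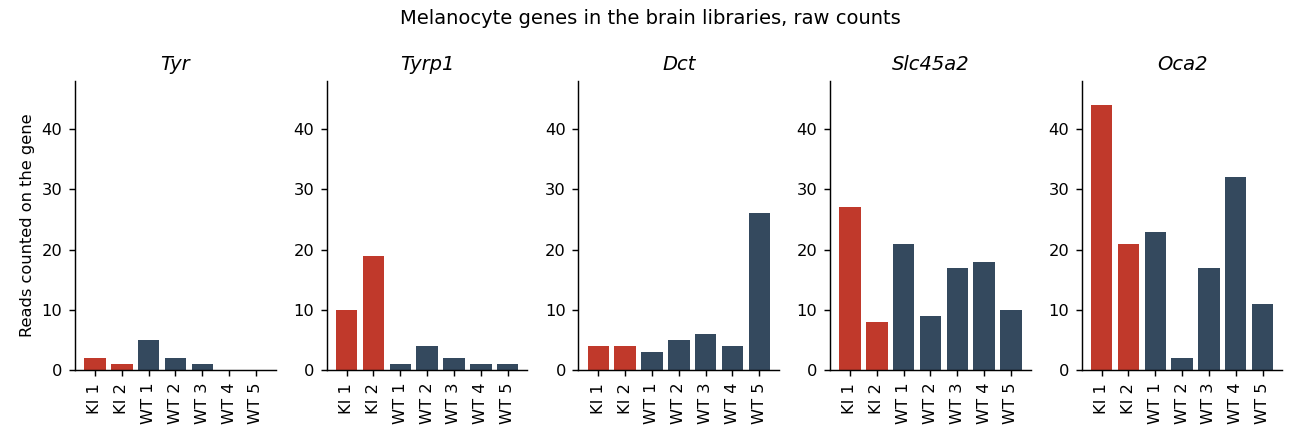
Raw read counts of Tyr, Tyrp1, Dct, Slc45a2 and Oca2 in the 7 brain libraries, 1 bar per mouse on a shared axis from 0, with KI in red and WT in dark blue. Tyr does not exceed 5 reads, Tyrp1 reaches 10 and 19 reads in KI 1 and KI 2, and Dct reaches 26 reads in WT 5.

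KI and WT mice were then compared within each tissue, the contrast for which the study was made. In the skin none of the 9 members was called by edgeR and 0.0247% of the 16163 genes tested were. Without adjustment, 0 of the 9 members had a p below 0.05, and the Wald test of DESeq2 called 0 as well. For 0 of 9 members did all KI skins lie to one side of the WT skins, against 9.83% of all genes. The log2 differences were -0.22 for Tyr (SE 1.04), 0.06 for Tyrp1 (SE 1.19), 0.00 for Dct (SE 0.964), -0.69 for Mlana (SE 0.936), -0.35 for Slc45a2 (SE 0.846) and 0.29 for Oca2 (SE 1.64). With errors of this size on the log2 scale, a change of 2-fold was not detectable in these 6 genes. For Mitf, Kit and Ednrb the differences were 0.02 (SE 0.297), 0.01 (SE 0.128) and 0.14 (SE 0.143).

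The KI skins stood far apart in the epidermal order, with sums of 900 CPM in KI 2 and 13583 CPM in KI 1 against 1500–16423 CPM in WT. The value for the melanin genes turned on which KI skin was kept. Without KI 1, the log2 difference was -2.63 for Tyr, -2.61 for Tyrp1 and -2.02 for Dct. Without KI 2 it was 0.65, 0.94 and 0.82. With the log2 of the epidermal sum as a covariate, added after the values had been seen, the differences were 0.03, 0.45 and 0.36, and none of the 9 members was called. The study's methods give a lower RNA integrity for the skin than for the liver.

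In the brain 5 members had enough reads for the test, namely Mitf, Slc45a2, Oca2, Kit and Ednrb. None was called, and 0% of the 16322 genes were, while an unadjusted p below 0.05 was found for 457 genes that were higher and 1275 that were lower, with 0 members among them. DESeq2 called 604 genes and 0 members. Mitf was at 4.04 and 4.05 CPM in the KI brains and at 1.88–4.03 CPM in the WT brains. It was the 1 member of 5 whose groups did not overlap, as was true of 27.3% of all genes tested, and its log2 difference was 0.44 (SE 0.300, edgeR adjusted p = 0.655). The differences were 0.76 (SE 0.725) for Oca2, 0.19 (SE 0.218) for Kit, 0.04 (SE 0.550) for Slc45a2 and -0.02 (SE 0.300) for Ednrb.

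Of the members too low for that test, Tyrp1 had the largest difference. With every gene of at least 1 read admitted, it was higher in the KI brains by 2.75 on the log2 scale (SE 0.685, edgeR adjusted p = 0.318 over 20225 genes). Dct, with its high value in WT 5, differed by -1.41 (SE 1.10, adjusted p = 0.728). The choroid plexus sum was 966 and 1080 CPM in the KI brains and 58.4–2489 CPM in the WT brains. Of it, Ttr held 880 and 988 CPM in KI and 20.6–2407 CPM in WT.

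Some cell type sums did not overlap between the KI and WT brains, as was true of 27.3% of all single genes tested. The melanosome list described below was at 995–1014 CPM in KI and 680–977 CPM in WT, and the regulator list at 847–856 and 505–789 CPM. The cell type sums not named in this paragraph overlapped. The 6 genes of radial glia and astrocytes summed to 2273 and 2306 CPM in KI and 2945–5453 CPM in WT. Their directions were divided, with 3 of the 6 higher in KI, 0 called and a median log2 difference of 0.0047. The lower sum therefore does not stand for the list as a whole. The 6 neuronal genes summed to 6519 and 7026 CPM in KI and 7038–7903 CPM in WT, with 2 of the 6 higher in KI and 0 called. The 6 endothelial genes summed to 235 and 237 CPM in KI and 117–206 CPM in WT. The 6 muscle genes and the 6 epidermal genes were also lower in KI, at 9.36–11.7 against 11.9–59.7 CPM and 49.9–50.9 against 59.5–101.5 CPM. The part of these cell types in the levels of Kit, Ednrb and Mitf was not tested.

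The brain of WT 5 stood apart from the other WT brains, with a chi-square per gene of 176–208 against each of them and 26.1–42.1 among the others. Kit and Ednrb were lowest in it, at 55.1 and 106.7 CPM. Without that library 1698 genes were called between KI and WT brains and 0 members.

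The liver was the tissue in which 1 member differed between the genotypes. Dct was at 2.26, 5.44, 6.51, 4.56 and 6.22 CPM in WT 1 to WT 5. It was at 1.55 CPM in KI 1 and 1.62 CPM in KI 2. Both KI livers lay below every WT liver, with WT 1 close to them. The log2 difference was -1.68 (SE 0.419, edgeR adjusted p = 0.0734), which is 3.20-fold lower in KI, and it rests on 50 and 56 reads in KI against 75 to 215 reads in WT.

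Dct was thus 1 of the 4 members tested in the liver, with 5.57% of the 14966 genes called in either direction and 1.68% called lower. It was also the 1 member whose groups did not overlap, as was true of 23.9% of all genes tested. The DESeq2 Wald test gave an adjusted p of 0.0012. The edgeR call was lost when KI 1, KI 2, WT 2, WT 3 or WT 5 was left out, with log2 differences from -1.70 to -1.55 and adjusted p from 0.111 to 0.386. It was also lost in a fit of all 21 libraries (-1.70, adjusted p = 0.585), with the replicate number as a block (-1.14, adjusted p = 0.143) and at an adjusted p of 0.05.

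The other members tested in the liver did not follow Dct. Mitf was at 3.42 ± 0.875 CPM in KI (SD, n = 2) and 3.00 ± 0.605 CPM in WT (SD, n = 5), with a log2 difference of 0.18 (SE 0.251). Kit differed by -0.17 (SE 0.121) and Ednrb by -0.04 (SE 0.370). None of the 3 was called. Pmel, at 0.924–1.40 CPM in KI and 0.531–1.15 CPM in WT, differed by 0.49 (SE 0.411), and Sox10, at 0.260–0.404 and 0.231–1.08 CPM, by -0.84 (SE 0.616).

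The sums of several cell type lists did not overlap between the KI and WT livers, as was true of 23.9% of all single genes tested. The photoreceptor sum was at 11.5–16.3 CPM in KI and 6.8–8.5 CPM in WT. Gnat1 made up most of it, with a mean of 10.9 CPM in KI and 4.84 CPM in WT. Gnat2 was at 1.99 and 2.06 CPM, and Crx had 0 reads in every liver. The neuronal sum was at 4.1–4.2 CPM in KI and 1.1–3.8 CPM in WT. Its genes were divided: of 4 tested, 1 was called higher and 1 lower, with a median log2 difference of -1.10. The melanosome list described below was at 495–524 CPM in KI and 457–486 CPM in WT. The cell type sums not named in this paragraph overlapped. The 6 hepatocyte genes summed to 146581 and 147926 CPM in KI and to 151091–170007 CPM in WT. The 8 erythroid and progenitor genes summed to 645 CPM in both KI livers and 683–1021 CPM in WT, and the 11 mast cell genes to 51.4 and 69.2 CPM in KI and 23.2–36.1 CPM in WT. Of the mast cell genes 3 of 6 tested were called higher in KI, namely Cpa3, Ms4a2 and Hdc, where 3.89% of all genes were. The 10 Schwann cell genes summed to 71.5 and 102.8 CPM in KI and 96.5–107.2 CPM in WT, which overlap. The part of these cell types in the level of Dct was not tested.

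**Figure D5:**
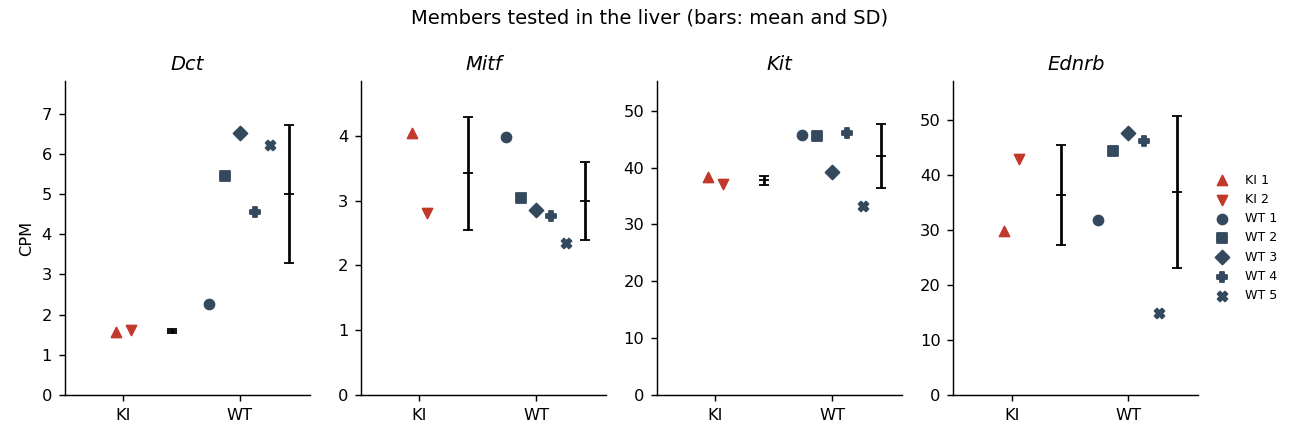
CPM of the 4 members tested in the liver, 1 symbol per mouse, with the mean and SD of the 2 KI and 5 WT livers beside them and every axis starting at 0. Dct is at 1.55 and 1.62 CPM in the KI livers and 2.26–6.51 CPM in the WT livers, while the groups overlap for Mitf, Kit and Ednrb.

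Whether the KI difference varied between tissues was tested in 1 fit of all libraries. Between skin and brain 0% of the 18062 genes were called, while 745 genes on the higher side and 594 on the lower had an unadjusted p below 0.05, with 0 of the 5 members tested in both tissues among them. Between skin and liver 0.0997% were called and 0 of 4 members. The difference for Dct was 1.70 on the log2 scale (SE 1.14, adjusted p = 1), so the effect on Dct in the liver was not shown to differ from that in the skin. These comparisons share the skin libraries.

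Other genes of the melanosome and of melanocyte control were followed as fixed lists. The melanosome list held 24 genes, from the structural proteins Pmel and Gpnmb to the RAB27A, melanophilin and myosin 5A transport complex and the Hermansky-Pudlak genes. In WT skin against WT brain 14 were higher and 5 lower, where 40.3% of all genes were higher and 39.1% lower, with a median log2 difference of 1.01 against 0.02 for all genes. Pmel was higher by 6.07, Trpm1 by 6.28, Mlph by 4.54 and Rab38 by 4.52 on the log2 scale. Against the liver 12 were higher and 8 lower, where 39.8% of all genes were higher and 32.5% lower, with a median of 0.29 against 0.10 for all genes. Rab27a, which many secretory and blood cells use, was lower in skin than in liver by 1.25 on that scale.

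The list of regulators, ligands and receptors held 18 genes that were found, and Asip was the 1 symbol not analysed here. In skin against brain 12 were higher and 4 lower, with a median of 1.81 against 0.02 for all genes, of which 40.3% were higher and 39.1% lower. In skin against liver 12 were higher and 4 lower, with a median of 2.00 against 0.10 for all genes, of which 39.8% were higher and 32.5% lower. Mc1r was higher in skin than in brain by 3.21, Edn3, the ligand of EDNRB, by 2.48 and Sox10 by 1.09 on the log2 scale. Pax3 was lower in skin than in brain by 1.04. Kitl was higher in skin than in liver by 2.14.

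Between KI and WT, 0 of the 24 melanosome genes and 0 of the 18 regulators were called in the skin, with medians of 0.08 and -0.09 against -0.03 for all genes. In the brain 0 of 23 and 0 of 18 tested were called, with medians of 0.22 and 0.23 against -0.02 for all genes. In the liver 2 of 22 melanosome genes were called, both higher, and 0 of 14 regulators, with medians of 0.26 and -0.27 against -0.02. Of all genes 5.57% were called in the liver and 3.89% were called higher. The 2 were Gpnmb, a glycoprotein of melanosomes that macrophages also make, with a log2 difference of 1.68 (SE 0.363, edgeR adjusted p = 0.0462), and Rab27a, with 0.62 (SE 0.161, adjusted p = 0.0842). In the skin the differences were -0.26 for Pmel (SE 0.997), -0.71 for Sox10 (SE 0.496), -0.34 for Pax3 (SE 0.632), -1.03 for Mc1r (SE 0.851), 0.14 for Kitl (SE 0.110) and -0.42 for Edn3 (SE 0.347).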

How the data were processed

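RNA of skin, brain and liver of newborn (P0) mice was sequenced. According to the study's methods, paired-end reads were trimmed with an in-house script and aligned to mm9 with TopHat2, and the submitters' processing notes also name HTSeq and DESeq. The authors deposited, per library, raw read counts by gene symbol with 5 summary lines, which held 30.4–38.1% of the reads and were left out. The counting mode and annotation are not given in the sources used here, and the reads are not known to have been counted by strand.

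CPM were counts per 1000000 counts on genes, and exon lengths came from the NCBIM37 annotation. Within a tissue, genes kept by filterByExpr were scaled with TMM factors, and edgeR 4.0.16 (R 4.3.3) supplied the quasi-likelihood test. WT tissues were compared over the 15 WT libraries and KI effects over all 21. The p-values were adjusted by Benjamini-Hochberg over all genes tested, with 0.1 as the limit for a call. log2 CPM had a prior count of 2. Relations were tested by exact permutation of 5040 orders, of which 13 relations were fixed at the outset and 20 added after the values were seen. Alternatives were DESeq2 1.42.0 (its size factors or its Wald test), no filter beyond 1 count, 1 fit of all 21 libraries, an adjusted p of 0.05, a replicate block, an epidermal covariate and each mouse left out. The edgeR step was tested on simulated counts. Figures and relations used Python 3.11.15, scipy 1.17.1 and matplotlib 3.10.9.

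The members and lists were chosen with earlier results of these data known. The genes named were the members, Pmel, Sox10, Pax3, Mc1r, Kitl and Edn3, called genes of the 2 pathway lists, markers beside a result and the 10 genes most like the skin pattern. Zic1, Crx, Rpe65, Rgr, Csn3 and Aqp5 were looked at more closely after their values were seen. Same-numbered libraries of the 3 tissues were taken as 1 mouse: Xist and Uty marked the same mice, KI 2 and WT 3, as male in each tissue, and the mouse as a block is therefore given where it changes a call between WT tissues. Nothing says whether the mice shared litters, so p-values measure the spread between these mice. A protein comparison was not analysed here.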

Additional observations from a re-analysis of the deposited data

Results flagged for a closer look

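The highest and the lowest of the 5 WT libraries were compared with the others by Dixon's test in 25 cases with at least 10 reads in some library: the members in each tissue, and Pmel, Sox10, Pax3, Mc1r, Kitl and Edn3 in the skin. Chance alone sets a library apart in about 1 of 20 cases. Dct in the brain of WT 5 stood apart at 0.979 CPM against 0.092–0.191 CPM in the other WT brains, a gap of 0.889 of the whole range.

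Sox10 in the skin of WT 5 stood apart at 89.5 CPM against 32.8–34.4 CPM in the other WT skins, a gap of 0.973 of the range. In that skin Csn3, a milk casein gene, held 69.2 CPM and Aqp5, a water channel gene of glands, 17.1 CPM, while the other skins held at most 4.59 and 4.91 CPM. These 2 genes were picked after their values were seen, and their relation to Sox10 was not tested.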

How the results depend on the processing

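With 2 KI mice per tissue, the direction of a KI difference in the skin rested on single animals. When each mouse was left out in turn, the log2 difference in the skin ran from -2.63 to 0.65 for Tyr, -2.61 to 0.94 for Tyrp1, -2.02 to 0.82 for Dct, -0.19 to 0.24 for Mitf, -2.57 to 0.10 for Mlana, -2.09 to 0.42 for Slc45a2, -7.20 to 1.39 for Oca2 and -0.046 to 0.10 for Kit, with reversed values as small as 0.38 for Tyr, -0.17 for Tyrp1, -0.12 for Dct, -0.0052 for Mitf, 0.06 for Slc45a2, -0.0025 for Oca2 and -0.03 for Kit. In the brain it ran from -1.02 to 0.65 for Slc45a2 (reversed down to -0.08) and -0.17 to 0.10 for Ednrb (0.0024), and in the liver from -0.10 to 0.43 for Mitf and -0.30 to 0.21 for Ednrb (0.04). For WT skin against brain it ran from -0.55 to 0.55 for Oca2 and -0.028 to 0.19 for Kit, and for WT brain against liver from 0 to 1.45 for Mlana. For the KI effect in skin minus that in brain it ran from -7.36 to 0.24 for Oca2 (0.0033) and -0.067 to 0.24 for Ednrb, and for skin minus liver from -0.37 to 2.54 for Dct and -0.17 to 0.63 for Ednrb. The other members kept their direction under leave-one-out, and none was called in the skin or brain under any alternative.

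The genes called in the skin numbered 4, and 107 with DESeq2, 23 with all 21 libraries in 1 fit, 0 at an adjusted p of 0.05, 8 with the epidermal covariate and 0 to 1 without single mice. In the brain they numbered 0, and 604 with DESeq2, 614 with all libraries and 1698 without WT 5. In the liver they numbered 833, and 1489 with DESeq2, 242 with all libraries, 383 at 0.05 and 56 to 1290 without single mice. The members called in the liver fell from 1 to 0 with all libraries, at 0.05, with the block and without 5 of the 7 mice in turn. Between skin and liver 3 to 32 genes were called in place of 18. With the epidermal covariate Tyr was at 0.026, with all libraries Ednrb in the brain was at 0.063, and with DESeq2 size factors Kit in WT skin against brain was at -0.0012. Kit was called higher in WT brain than in liver with those size factors and without WT 5, Tyr and Tyrp1 with the block and without WT 4, and Ednrb in WT skin against liver with the block. The cause was not tested.

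KI and WT shared the replicate numbers 1 and 2 only, and after removal of the group means same-numbered libraries correlated by a mean of 0.116 in the skin, -0.037 in the brain and -0.060 in the liver, so the numbers were not taken as pairing the mice. With the replicate block 0 genes were called in the skin, 2165 in the brain and 817 in the liver, of which 497 were also called without it. The block gave -1.14 for Dct in the liver (adjusted p = 0.143), -0.20, -0.10 and -0.10 for Tyrp1, Dct and Mitf in the skin, -0.014 for Mitf in the liver and -0.47 for Oca2 in WT skin against brain. Counts under 10 reads limit what can be said of Tyr, Tyrp1 and Mlana in the brain.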
